A study of Mus musculus with 4 samples.

Results

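The alpha-tubulin group described here has 7 members of the 22084 genes in the deposited tables. They are the genes Tuba1a, Tuba1b, Tuba1c and Tuba4a and the processed copies CT571252.1, AC154767.3 and Gm14150, matched by gene name. The 3 copies were selected on their counts, which were far higher in the libraries labelled as knockout than in the others, and the 4 genes were chosen as genes of that family. Values of the 7 members between these arms are therefore a description, with no test.

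Gene counts came from RNA sequencing of 4 libraries of brain tissue from B6D2F2 mouse embryos at E13.5, in a study of the loss of Tcf20, which encodes a nuclear protein. KO26F and KO23M have the genotype TCF20-/- in their labels. WT25F is TCF20+/+, and WT22M has a wild-type title but a genotype field of TCF20+/-. Both WT25F and WT22M hold at least 1 intact allele whichever label is right, and the term carriers is used for the pair. No agent, driver or Cre is named in the labels, and the deleted part of the gene is not stated there. Nothing says that the embryos were from different litters, and p-values therefore cover only the spread between these samples. The tissue is telencephalon in the titles and cerebral cortex in the extraction protocol.

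The libraries held 18130297 (KO26F), 18512530 (KO23M), 17946016 (WT25F) and 17794494 (WT22M) counts. A count of 0 in a library allows up to 3 counts, which is 0.162 to 0.169 CPM (counts per 1000000 counts of the library). Counts over the whole Tcf20 gene were 98.6 CPM in KO26F and 104 in KO23M, against 118 in WT25F and 111 in WT22M (log2 fold change -0.18, SE 0.10, edgeR quasi-likelihood test, Benjamini-Hochberg adjusted p = 1), and since the deleted part is not known here, they do not check the labels. All 9 telencephalon markers were detected, and their summed level was 1773 to 1816 CPM in the KO libraries and 1580 to 1614 CPM in the carriers.

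Alpha-tubulin pairs with beta-tubulin to form the dimers from which microtubules are built. In the developing forebrain microtubules fill the growing axons and carry the movement of the nucleus in migrating neurons, and TUBA1A mutations in people disturb the folding of the cortex. Processed copies arise when a messenger RNA is reverse transcribed and inserted elsewhere in the genome, so they lack introns and usually the promoter of their gene.

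The copies lie on other chromosomes than the genes they were made from. Positions are those of the files, on GRCm38. Tuba1a (ENSMUSG00000072235, chr15:98949841-98953551, minus strand), Tuba1b (ENSMUSG00000023004, chr15:98931425-98934565, minus strand) and Tuba1c (ENSMUSG00000043091, chr15:99029891-99038105, plus strand) form a cluster that begins 16.0 to 16.1 Mb from the end of Tcf20 (chr15:82808629-82912134). Tuba4a (ENSMUSG00000026202, chr1:75214228-75219865, minus strand) lies apart from them and overlaps Stk16, on the opposite strand. CT571252.1 (ENSMUSG00000112926, chr12:51133551-51134702, minus strand) is named Gm7172 in GENCODE vM21. AC154767.3 (ENSMUSG00000114547, chr13:112593743-112595084, minus strand) is named Gm3226 there and overlaps Il31ra, a cytokine receptor gene on the same strand. Gm14150 (ENSMUSG00000082809) is at chr2:151458956-151460309 on the plus strand. GENCODE gives all 3 the biotype processed pseudogene.

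Few base differences separate a copy from its gene. Over the aligned bases, AC154767.3 differed from the coding sequence of Tuba1b at 11 of 1342 bases (99.18% identity) and Gm14150 at 17 of 1354 (98.74%). CT571252.1 aligned with Tuba1a from codon 66 on, with 39 differences in 1152 bases (96.61%). The longest open reading frame from a start codon held 376 codons in Gm14150, 116 in AC154767.3 and 76 in CT571252.1, against 452 in Tuba1a and Tuba1b. AC154767.3 and Gm14150 shared 4 differences from Tuba1b, and each of these 4 was also present in Gm3756 and Gm17383, further copies of Tuba1b.

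A read of 50 bases could often not tell a copy from its gene. Of all windows of 50 bases in AC154767.3, 62% occur without a difference in Tuba1b, and 82.1% occur in at least 1 other sequence of the family. The shares were 62.5% and 71.4% for Gm14150 and 16.8% and 21.8% for CT571252.1. Windows of 100 bases were found in the gene for 34%, 41.7% and 1.71% of AC154767.3, Gm14150 and CT571252.1. The genes share sequence among themselves as well. Tuba1a and Tuba1b were 98.3% identical over their coding bases, and 94.6% of the 50-base coding windows of Tuba1b, 88.9% of those of Tuba1c and 82.2% of those of Tuba1a occur elsewhere in the family. Tuba4a stands apart, at 85.8% to 86.2% identity with the other genes and with 0% of its windows found elsewhere. The read length, the strand setting and the rule for reads with several matches are unknown here, so counts of all members but Tuba4a are uncertain between gene and copy, and reads of Tuba4a cannot be told from those of Stk16 where the genes overlap.

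**Figure D1:**
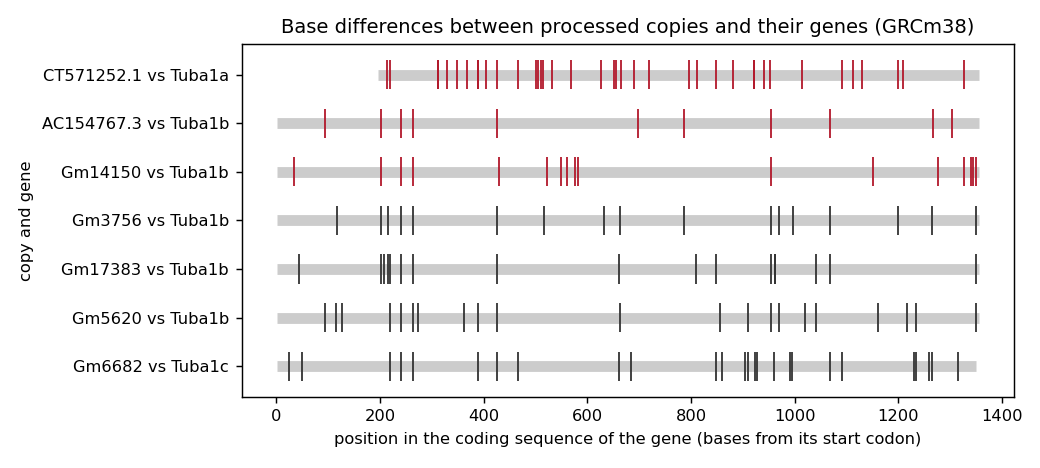
Base differences (vertical marks) between each processed copy and its gene, by position in the coding sequence of the gene in bases from the start codon; grey bars span the aligned part, and red marks are the copies CT571252.1, AC154767.3 and Gm14150. CT571252.1 holds 39 differences over a shorter span, and AC154767.3 holds 11, the fewest of the 7 copies.

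In KO against carriers, 6 of the 7 members had groups that did not overlap, 5 higher and 1 lower in the KO libraries. Over all 16252 genes tested, 13.6% had both KO libraries above both carriers and 13.4% had both below. All 7 members passed the filter on low counts. Because this contrast chose the copies, nothing is read from the count. The quasi-likelihood test of edgeR called 0.0615% of all genes, 10 in number, with 5 higher (0.0308%) and 5 lower (0.0308%). This background moved when a library was left out, to 48 calls without KO26F, 65 without KO23M, 100 without WT25F (74 higher and 26 lower) and 59 without WT22M.

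**Figure D2:**
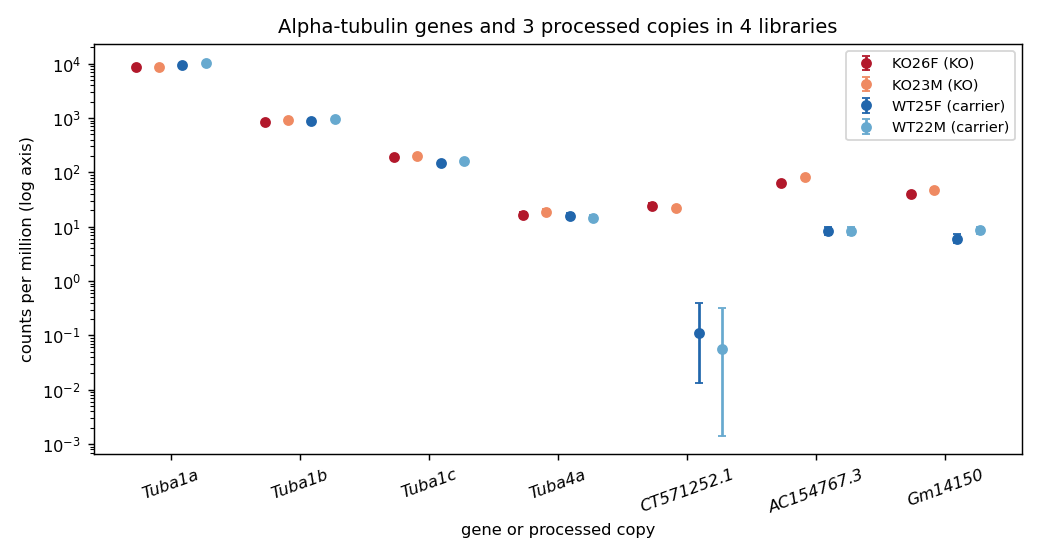
CPM (log axis) of the 7 alpha-tubulin members in each library, KO libraries in red shades and carriers in blue shades; bars are 95% counting intervals. The 3 copies on the right lie higher in both KO libraries (22.04 to 80.9 CPM) than in both carriers (0.0562 to 8.54 CPM), while for each of the 4 genes on the left the 4 libraries lie close to each other.

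Tuba1a, the main alpha-tubulin of young neurons, was the most or second most counted gene of every library. It had 154578 counts in KO26F and 163664 in KO23M, against 167851 in WT25F and 185303 in WT22M. These are 8526 and 8841 CPM in KO26F and KO23M and 9353 and 10414 CPM in WT25F and WT22M, and the groups did not overlap. Its log2 fold change was -0.19 (SE 0.09), or 8683 ± 223 CPM in KO against 9883 ± 750 CPM in carriers (SD, n = 2 each). In bulk tissue, fewer cells of a type and less RNA per cell cannot be told apart. The summed level of 7 neuron markers, all detected, was also lower, at 6677 to 6796 CPM in the KO libraries and 6925 to 7039 CPM in the carriers. A large part of this sum is Tubb3, itself a tubulin, whose groups were not separated. Tubb3 had 2879 and 3182 CPM in KO26F and KO23M, against 3061 and 3182 in WT25F and WT22M. With Tubb3 left out of the sum, KO26F lay above WT22M, so the arms overlapped. Stmn2, another of the 7, was lower in both KO libraries than in both carriers. The part of these markers in the level of Tuba1a was not tested.

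Tuba1b, a broadly expressed alpha-tubulin, did not separate the groups. It stood at 851 CPM in KO26F and 920 in KO23M, against 899 in WT25F and 981 in WT22M (log2 fold change -0.09, SE 0.10). KO23M lay between the carriers.

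Tuba1c, an alpha-tubulin of many tissues, was at 188 CPM in KO26F and 202 in KO23M, against 151 in WT25F and 159 in WT22M. Both KO libraries lay above both carriers, with 195 ± 10.01 CPM in KO and 155 ± 6.27 CPM in carriers (SD, n = 2 each), a log2 fold change of 0.33 (SE 0.10). The ratio of summed counts was 1.26 (95% counting interval 1.22 to 1.3), which covers counting error only, as do all intervals given. Tuba4a, an alpha-tubulin found mainly in mature tissues, was near the low end, at 16.4 CPM in KO26F and 18.9 in KO23M, against 15.9 in WT25F and 14.8 in WT22M (log2 fold change 0.20, SE 0.16). Its KO26F and WT25F values lay within each other's counting intervals.

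CT571252.1, the copy of Tuba1a, was close to absent in the carriers. It had 443 counts in KO26F and 408 in KO23M, against 2 in WT25F and 1 in WT22M. In CPM these are 24.4 and 22.04 in KO26F and KO23M and 0.111 and 0.0562 in WT25F and WT22M, and both carrier values lie below the limit that a count of 0 allows. The ratio of summed counts was 277 with a 95% counting interval of 94.4 to 1344, so its size is known only within that range. The fitted log2 fold change was 8.0 and depends on the 3 carrier counts.

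AC154767.3, a copy of Tuba1b, had 1164 counts in KO26F and 1498 in KO23M, against 149 in WT25F and 151 in WT22M. Its level was 64.2 CPM in KO26F and 80.9 in KO23M, against 8.30 in WT25F and 8.49 in WT22M. The carriers were level with each other, whereas the intervals of the KO libraries, 60.6 to 68.0 CPM in KO26F and 76.9 to 85.1 in KO23M, did not meet. The log2 fold change was 3.11 (SE 0.14), and the ratio of summed counts was 8.65 (interval 7.68 to 9.78).

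Gm14150, the other copy of Tuba1b among the members, had 733 counts in KO26F and 876 in KO23M, against 108 in WT25F and 152 in WT22M. Its level was 40.4 CPM in KO26F and 47.3 in KO23M, against 6.02 in WT25F and 8.54 in WT22M (log2 fold change 2.59, SE 0.17, ratio of summed counts 6.04). Its lowest KO library exceeded its highest carrier by a wide margin, as for the other copies. AC154767.3 was above Gm14150 in both KO libraries and in WT25F, and the pair were level in WT22M.

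Divided by exon length, the members spanned a wide range of levels. Tuba1a had 4729 and 4903 CPM per kb of exon in KO26F and KO23M and 5188 and 5776 in WT25F and WT22M. Tuba1b followed at 454 to 491 CPM per kb in the KO libraries and 480 to 523 in the carriers, and Tuba1c at 82.2 to 88.4 in the KO libraries and 65.9 to 69.7 in the carriers. In the KO libraries AC154767.3 came next, at 47.8 to 60.3 CPM per kb, then Gm14150 at 29.9 to 35.0, CT571252.1 at 19.1 to 21.2 and Tuba4a at 4.44 to 5.11. In the carriers, AC154767.3 (6.19 to 6.32 CPM per kb), Gm14150 (4.45 to 6.31) and Tuba4a (3.99 to 4.31) were close neighbours, with the first pair not separated by their spread, and CT571252.1 was last at 0.0488 to 0.0967.

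The copies took a small part of the reads given to the group. Of all counts of the 7 members, 1.33% in KO26F (exact binomial interval 1.28% to 1.38%) and 1.48% in KO23M (1.43% to 1.54%) fell on the 3 copies. The share was 0.138% in WT25F, with an interval of 0.122% to 0.156%, and 0.147% in WT22M, with one of 0.131% to 0.165%. The 7 members together made up 0.971% and 1.01% of the library in KO26F and KO23M, and 1.04% and 1.16% in WT25F and WT22M. Set against its own gene, AC154767.3 made up 7.01% of the counts of copy plus Tuba1b in KO26F and 8.08% in KO23M, against 0.915% in WT25F and 0.858% in WT22M. Gm14150 made up 4.53% and 4.89% of the counts of copy plus Tuba1b in KO26F and KO23M, against 0.665% and 0.863% in WT25F and WT22M. CT571252.1 made up 0.286% and 0.249% of copy plus Tuba1a in KO26F and KO23M, and under 0.0043% in each carrier by the upper limits of the intervals.

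**Figure D3:**
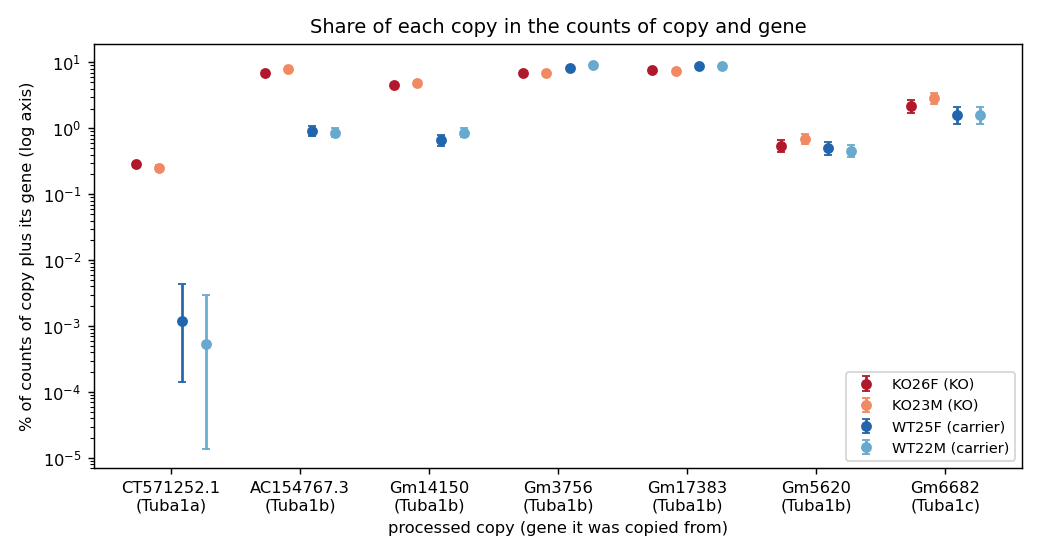
Share of each processed copy in the counts of the copy plus the gene it matches (percent, log axis), by library, with exact 95% binomial intervals; KO libraries are in red shades and carriers in blue shades. AC154767.3 and Gm14150 hold 4.53% to 8.08% in the KO libraries and under 1% in the carriers, whereas Gm3756 and Gm17383 hold 6.81% to 7.78% in the KO libraries and 8.18% to 9.3% in the carriers.

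The 4 other copies with at least 20 counts over the libraries had log2 fold changes from -0.46 to 1.01. They are the copies left after the members were chosen for far higher counts in the KO libraries. That choice made a call on the higher side unlikely among them, so its absence in the fit of all genes is no result. Of their windows of 50 bases, 52% to 76.9% occur elsewhere in the family, so their counts are not separate from those of the members. Their values in the fit of all genes are given as a description. Gm3756, on chromosome 9, had 64.1 CPM in KO26F and 67.2 in KO23M, against 80.1 in WT25F and 101 in WT22M (log2 fold change -0.46, SE 0.12, edgeR adjusted p = 0.633). Gm17383, on chromosome 18, had 71.8 CPM in KO26F and 72.9 in KO23M, against 87.0 in WT25F and 94.97 in WT22M (log2 fold change -0.33, SE 0.11, edgeR adjusted p = 1). Both copies of Tuba1b were lower in each KO library than in each carrier, and neither passed the threshold of 0.05 in this fit. That outcome depended on the model. With all 4 libraries and the title letter (F or M) as a replicate block, both passed, but the labels do not say that the letter pairs libraries. With 1 library left out, the log2 fold change of Gm3756 was -0.41 without KO26F and -0.52 without KO23M. It was -0.64 without WT25F and -0.27 without WT22M.

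The scarcer copies had log2 fold changes above 0. Gm5620, a copy of Tuba1b, had 4.63 CPM in KO26F and 6.37 in KO23M, against 4.51 in WT25F and 4.50 in WT22M (log2 fold change 0.29, SE 0.25, edgeR adjusted p = 1). Its KO26F value lay within the counting intervals of both carriers, and its log2 fold change was 0.02 without KO23M. Gm6682, a copy of Tuba1c, had 4.19 CPM in KO26F and 5.94 in KO23M, against 2.45 in WT25F and 2.59 in WT22M (log2 fold change 1.01, SE 0.28, edgeR adjusted p = 0.849). Neither passed in this fit, and DESeq2 passed 0 of the 4, at adjusted p = 1 for each. With the title letter as a replicate block Gm6682 passed as well, but the labels do not say that the letter pairs libraries. Since the members were chosen first, the absence of a call on the higher side without that block is no result about these copies. An unadjusted edgeR p under 0.05 was found for 3 of the 4, and for 464 of all 16252 genes tested. The 3 did not share a direction, with Gm3756 (0.000752) and Gm17383 (0.00442) on the lower side and Gm6682 (0.00166) on the higher.

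Added up, Tuba1b and its 5 counted copies gave nearly the same total in both arms. The sum of Tuba1b, AC154767.3, Gm14150, Gm3756, Gm17383 and Gm5620 was 1096 CPM in KO26F and 1195 in KO23M, against 1085 in WT25F and 1198 in WT22M. The mean was 1146 ± 69.6 CPM in KO and 1142 ± 79.7 CPM in carriers (SD, n = 2 each), a difference of 3.89 CPM, well within the spread of either arm. The fitted log2 fold change of Tuba1b was -0.09 (SE 0.10) counted alone, 0.07 (SE 0.10) with AC154767.3 and Gm14150 added, and 0.00 (SE 0.10) with all 5 copies added. The sum over all 5 was chosen after the values of the copies were seen.

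**Figure D4:**
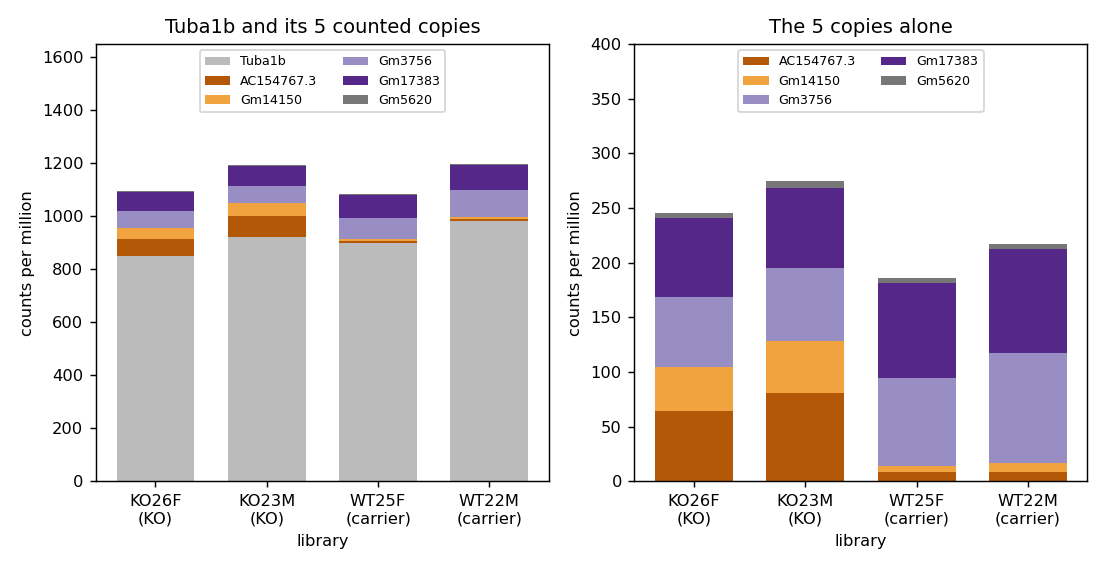
Stacked CPM of Tuba1b and its 5 counted copies (left) and of the 5 copies alone (right) in each library, KO libraries left of the carriers. The full stacks reach 1096 and 1195 CPM in KO26F and KO23M and 1085 and 1198 CPM in WT25F and WT22M, and the brown (AC154767.3) and orange (Gm14150) parts are large in KO only.

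For the other genes the sums with their copies still separated the arms. Tuba1a with CT571252.1 added was 8550 CPM in KO26F and 8863 in KO23M, against 9353 in WT25F and 10414 in WT22M, since the difference of KO from carriers was 23.1 CPM for CT571252.1 and -1200 CPM for Tuba1a. Tuba1c with Gm6682 added was 192 CPM in KO26F and 208 in KO23M, against 153 in WT25F and 162 in WT22M. All 7 members together were 9711 CPM in KO26F and 10132 in KO23M, against 10433 in WT25F and 11586 in WT22M.

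The carriers were compared with each other, a contrast that did not choose the members. The libraries also differ in the title letter, and the spread came from the KO libraries. CT571252.1 passed the filter on low counts only through its KO counts, and its carrier counts are too few for a call. For 7 members, an absence of calls is near the share over all genes and is no result about them. In WT22M against WT25F, 1 of the 7 members had an unadjusted edgeR p under 0.05, as did 793 of all 16252 genes tested. Of the 7 members, edgeR and DESeq2 each called 0, while edgeR called 0.714% of all genes there, 116 in number. That background rests on the setting, since DESeq2 called 33 genes and edgeR called 0 without a filter or when the 2-arm fit gave the spread. The member with an unadjusted p under 0.05 was Gm14150, with 8.54 CPM in WT22M and 6.02 in WT25F (log2 fold change 0.54, SE 0.25, edgeR adjusted p = 0.905). Tuba1a was at 0.19 (SE 0.18), Tuba1b at 0.16 (SE 0.18), Tuba1c at 0.11 (SE 0.17), Tuba4a at -0.08 (SE 0.24), AC154767.3 at 0.06 (SE 0.22) and CT571252.1, with 1 and 2 counts, at -0.88 (SE 1.31), each on the log2 scale and each with an edgeR adjusted p of 0.998.

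Slc7a11 was the gene whose levels over the 4 libraries lay closest to those of each of the 3 copies. Likeness was the Euclidean distance between centred log2(CPM + 0.5) values, among 13444 genes with a mean of at least 2 CPM, and the distance of Slc7a11 was 0.762 to Gm14150, 0.984 to AC154767.3 and 3.23 to CT571252.1. The next closest genes were Rpl3-ps1 for Gm14150 (1.5) and CT571252.1 (3.8), and Gm7729 for AC154767.3 (1.9). Slc7a11 encodes a membrane transporter that takes up cystine in exchange for glutamate. It had 396 counts in KO26F and 415 in KO23M, against 99 in WT25F and 71 in WT22M (log2 fold change 2.22, SE 0.19). As it was picked for its likeness to copies that are high in KO, this is a description with no test.

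The annotated transcript of Slc7a11 itself contains alpha-tubulin sequence. Its exon 12, which has 7429 bases and continues past the stop codon as the 3′ untranslated region, holds 2 adjoining segments that match Tuba1b in the opposite orientation. One aligns over 588 positions at 92.3% identity (chr3:50369805-50370392) and the other over 373 positions, gaps included, at 96.2% identity (chr3:50370391-50370762), and together they cover 958 bases. In a search of all annotated transcripts, 14 genes of the files matched an alpha-tubulin transcript over at least 100 bases at 90% identity or more. The 14 include Tuba1a, Tuba1b, Tuba1c and Tuba4a themselves, their processed copies, and Stk16, which overlaps Tuba4a. Of the 14, 13 were tested. The deposited values count whole genes, so where in Slc7a11 the reads lay cannot be told from them.

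The genes next to the copies were looked at for their own values. Within 200 kb, 3 genes beside AC154767.3 and 4 beside Gm14150 were tested. Of these edgeR and DESeq2 each called 0, which with 0.0615% of all genes called is near the background. An unadjusted edgeR p under 0.05 was found for 0 of them, and for 464 of all 16252 genes tested. The 1 gene of the files near CT571252.1 was not tested, for low counts. Beside AC154767.3, Il6st, a cytokine receptor subunit, had 32.6 and 29.8 CPM in KO26F and KO23M, against 32.5 and 29.7 in WT25F and WT22M. Slc38a9, an amino acid transporter of the lysosome, had a log2 fold change of 0.30 and Ddx4, an RNA helicase of germ cells, of -0.78. Beside Gm14150, log2 fold changes were -0.06 for Nsfl1c, -0.05 for Snph, 0.00 for Fkbp1a and 0.21 for Sdcbp2. Il31ra, which overlaps AC154767.3, had 9 and 11 counts in KO26F and KO23M, against 5 and 4 in WT25F and WT22M. It did not pass the filter on low counts of edgeR, and DESeq2 gave an adjusted p of 1.

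The rest of the tubulin pathway was read from 4 lists with 58 genes tested. Of these edgeR called 0 and DESeq2 called 0, and 1 had an unadjusted edgeR p under 0.05. With 0.0615% of all genes called, and 464 of 16252 at an unadjusted p under 0.05, a count of 0 is near the background and is no result about the lists. Among the other tubulins, none of the further alpha-tubulin genes listed (Tuba3a, Tuba3b, Tuba8 and Tubal3) was tested. Of the 12 that were, 6 were on the higher side and 6 on the lower. Their median log2 fold change was -0.01, beside 0.00 over all genes tested. Tubb5, the most counted beta-tubulin, had 5049 and 5366 CPM in KO26F and KO23M, against 5139 and 5418 in WT25F and WT22M (log2 fold change -0.02, SE 0.09). Tubb3, the beta-tubulin of neurons, was at -0.04 (SE 0.10) and Tubb2b, which partners alpha-tubulin in migrating neurons, at 0.07 (SE 0.11). Tubb1, with under 1 CPM in each library, was the gene with an unadjusted p under 0.05 (0.0482). Tubb2a passed only without KO23M (log2 fold change -0.65, edgeR adjusted p = 0.000151), with 465 CPM in KO26F and 652 in KO23M, against 754 in WT25F and 683 in WT22M. Tubb1 and Tubb2a were named after their values were seen.

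Genes that fold and modify tubulin were likewise without a call. Of 21 folding genes, from the CCT chaperonin, prefoldin and the tubulin cofactors, 8 were on the higher and 13 on the lower side (median -0.02, range -0.16 to 0.15). Cct5 had 361 and 360 CPM in KO26F and KO23M, against 365 and 355 in WT25F and WT22M. Cct2 and Cct7, further chaperonin subunits, were at -0.03 and -0.02 (SE 0.10 each). Of 18 genes that modify alpha-tubulin, 10 were on the higher and 8 on the lower side (median 0.01). Atat1, which acetylates alpha-tubulin, had 502 and 465 CPM in KO26F and KO23M, against 456 and 467 in WT25F and WT22M (log2 fold change 0.06, SE 0.10). Sirt2, a deacetylase, was at 0.01 (SE 0.10), and Vash1, which removes the last tyrosine, at -0.04 (SE 0.12).

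Of 7 genes of tubulin messenger RNA autoregulation and dimer binding, which also had no call, 6 were on the lower side (median -0.07), and 4 had both KO libraries below both carriers. Over all 58 genes of the 4 lists, 6 had both KO libraries above both carriers and 9 had both below, where 13.6% and 13.4% of all genes did. Stmn3, a stathmin that binds tubulin dimers, had 402 and 454 CPM in KO26F and KO23M, against 483 and 468 in WT25F and WT22M (log2 fold change -0.15, SE 0.10, edgeR adjusted p = 1). Stmn2, the stathmin of growing axons, was at -0.11 and Stmn1 at -0.02 (SE 0.10 each), both with an edgeR adjusted p of 1.

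**Figure D5:**
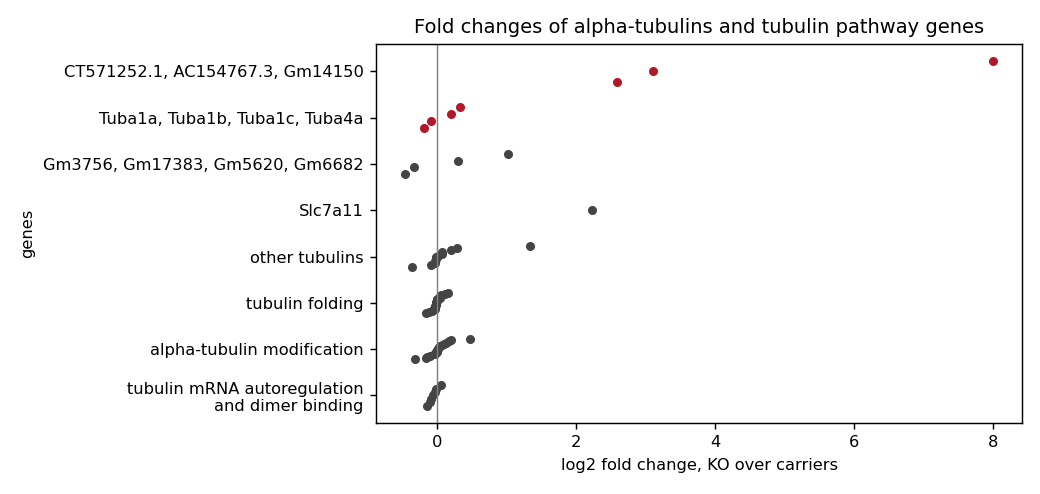
Log2 fold change of KO over carriers for each alpha-tubulin gene, each copy, Slc7a11 and the tested genes of 4 tubulin pathway lists, 1 point per gene, with points spread vertically within a line for legibility. Red points are the 7 members, whose values are a description; CT571252.1 reaches 8.0, while the list medians run from -0.07 to 0.01.

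Markers of other cell types differed between libraries. The summed level of 4 choroid plexus markers was 759 to 974.8 CPM in the KO libraries and 189 to 918 CPM in the carriers, with the low value in WT22M, and that of 5 diencephalon markers was 30.3 to 33.0 CPM in the KO libraries and 28.7 to 85.6 CPM in the carriers, with the high value in WT25F. The 3 erythroid markers summed to 106 to 117 CPM in the KO libraries and 42.0 to 81.8 in the carriers, and the 4 mesenchyme markers to 267 to 284 in the KO libraries and 332 to 347 in the carriers. The 8 markers of neural progenitors summed to 1988 to 2076 CPM in the KO libraries and 1958 to 2008 in the carriers, the 3 of microglia to 33.7 to 34.1 in the KO libraries and 35.6 to 43.8 in the carriers, and the 3 of endothelium to 113.5 to 124 in the KO libraries and 125.5 to 136 in the carriers. None of these markers was at 0 in all libraries, and their part in the levels of the copies was not tested.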

How the data were processed

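The authors deposited 3 tables, each of 1 library beside WT25F. Per the file headers, they hold a count and a normalized value for each library. The counts are whole numbers. The normalized values equal the count scaled to the library total as CPM, except that a count of 0 carries a pseudocount. The submitters' processing notes name Bowtie2 2.2.3, TopHat2 2.0.12, HTSeq 0.6.0 and the build mm9. Of the gene identifiers, 22039 are in GENCODE vM21, and 20222 of these (91.8%) have the identical position on GRCm38, so positions are given on that build. The tables were joined by gene identifier (19626 of 22084 genes in all 3), and genes that a table does not list were given a count of 0 in it. CPM here is the deposited count over the library total, with no pseudocount. No pair of libraries agreed within sampling noise (chi-square per gene 6.47 to 11.8).

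Counts of the KO libraries and the carriers were tested with edgeR 4.0.16 (robust quasi-likelihood test, TMM). Its filterByExpr, run on the 2 arms, kept 16252 genes, and the threshold was a Benjamini-Hochberg adjusted p of 0.05. A model of 3 groups gave WT22M against WT25F. Scripts were tested on simulated data. Sequences were those of GENCODE vM21 transcripts, aligned with Biopython 1.88 and searched with BLAST 2.17.0; the sequences themselves are not reported here. R 4.3.3, DESeq2 1.42.0 and Python 3.11.15 were used.

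The members and lists were chosen with earlier results of these data known. Named genes are the members, other copies with at least 20 counts, the 3 most abundant genes of each list and any gene called, and the 2 genes closest to each copy. Of 62 list genes, 59 were found and 58 tested. Alternatives were RLE size factors, DESeq2, no filter, the title letter as a block, each library left out, copies summed with their genes, exon length, and, for the carriers, the spread of the 2-arm fit.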

Additional observations from a re-analysis of the deposited data

Results flagged for a closer look

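For 8 values, the ratio of KO to carrier had the opposite sign in the libraries with the title letter F (KO26F over WT25F) and in those with the letter M (KO23M over WT22M). Each letter has 1 library per arm, so these differences were not tested. The sum of Tuba1b and its 5 counted copies had a log2 ratio of 0.015 for F and -0.004 for M, a difference of 0.019. Tubb2b was at 0.21 for F and -0.039 for M, a difference of 0.249, and Vash1 at 0.101 for F and -0.163 for M, a difference of 0.264. The differences for F minus M were 0.143 for Atat1, -0.158 for Stmn1, -0.166 for Cct7, -0.049 for Cct2 and -0.035 for Cct5. No ratio of a member reversed between the letters.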

How the results depend on the processing

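Of 100 fold changes of single alpha-tubulin genes and copies under 10 alternatives, 96 kept their direction within the spread. Tuba1b turned to 0.07 with AC154767.3 and Gm14150 added and to the higher side, at 0.00, with all 5 copies added, and CT571252.1 went to 8.5 without WT25F and 7.63 without WT22M. The members on the higher side numbered 5, and 3 under both ways of summing copies with genes, where the 3 copies are no longer counted apart and Tuba1b is on the higher side. Calls over all genes were 10, between 48 and 100 when 1 library was left out, and 123 with the title letter as a replicate block. The labels do not say that the letter pairs libraries (correlation of the differences between letters, 0.34 over 13451 genes; chi-square per gene 6.77 between KO26F and WT25F and 6.47 between KO23M and WT22M, against 10.3 between the KO libraries and 9.18 between the carriers), and under that block Gm3756 (edgeR adjusted p = 1.09e-05), Gm17383 (0.00754) and Gm6682 (0.045) passed. Calls in the tubulin pathway lists were 0, and 0 to 1 when 1 library was left out (Tubb2a without KO23M). In WT22M against WT25F the 116 calls became 33 with DESeq2 and 0 both without a filter and with the spread of the 2-arm fit, where 520 and 347 genes had an unadjusted p under 0.05; the cause was not tested. Divided by exon length, the copies' mean share of the members' counts was 1.94% in KO and 0.193% in carriers, in place of 1.41% and 0.143%. With 2 libraries per arm and 3 carrier counts of CT571252.1, depth limits the size of its ratio.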

Other observations

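Ttll6, a polyglutamylase of tubulin, was the only gene of the 4 tubulin lists called in WT22M against WT25F, with 0.337 CPM in WT22M and 2.45 in WT25F (log2 fold change -2.81, edgeR adjusted p = 0.0234); it was at 1.38 CPM in KO26F and 1.13 in KO23M. Each side is 1 library with the spread taken from the KO libraries, and the same comparison called 0 genes without a filter or with the spread of the 2-arm fit. AC187103.3, a partial match to Tuba1c on chromosome 13, had 0 counts in KO26F and KO23M, against 4 in WT25F and 2 in WT22M, and did not pass the filter on low counts.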
